A study of Mus musculus with 26 samples.

Results

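The 2 mouse formative stem (FS) cell lines of the series, FS1 and FS2, were compared by where their open chromatin peaks lay. Each of the 6 FS lists was cut to its top 8044 peaks by −log10 p, overlapping peaks were merged into 15884 union regions, and a list held a region when 1 of its peaks overlapped it by at least 1 bp. The regions described here were those held by all 3 lists of a line and by none of the other line. There were 414 regions held by FS1 only, which is 2.61% of the union, and 236 held by FS2 only, which is 1.49%. Together they made 650 of the 15884 regions, or 4.09%, while 2873 regions were held by all 6 lists. The 18 lists of the same set gave 25068 union regions. With 3 libraries against 3, an exact two-sided test cannot give a p below 0.1, so the lines were described and not tested.

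Both lines carried the label of mouse formative stem cells and were grown in the A3XR medium. FS1 was at passage 21 and FS2 at passage 29, with 3 libraries each, so line and passage cannot be told apart. Reference lists, again 3 for each line, came from epiblast stem cells (EpiSCs) and embryonic stem (ES) cells. The EpiSC line called EpiSC_AF was kept in AF and used at passage 22, the lines called EpiSC_AFX1 and EpiSC_AFX2 were kept in AFX and used at passages 14 and 16, and the ES cells were kept in 2iL and used at passage 16. Also looked up were 4 lists of epiblast-like cells (EpiLCs), induced from ES cells for 2 days in AF with KSR and sorted for low GFP. Their source label is Rd2EpiLC. The ES libraries of that set, labelled Rd2GFP, are not the ES lists used as reference here. No genotype or number of clones per line is given in the sources used here. Each library was made by ATAC-seq from 50000 cells.

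ATAC-seq uses the Tn5 transposase, which cuts and tags DNA where it is not covered by nucleosomes, so peaks mark promoters, enhancers and other open sites. Naive ES cells, formative cells and primed EpiSCs are successive forms of pluripotency. They share core regulators such as Pou5f1 and Sox2 and differ mainly in the enhancers they use, while most promoters rich in CpG stay open in all of them. Otx2, Dnmt3b and Tcf15 are among the genes switched on as cells leave the naive state.

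The promoter windows below belong to regions near gene starts with the highest ranks in each direction, plus Dnmt3b from the formative marker list. They are shown as examples and need not be typical of their sets. Cabyr and Pigz also ranked high among the FS2-only starts and are not shown, and none of the 300 bases of the Pigz window lay inside its region. They are RefSeq windows on GRCm38.p6 (mm10), 250 bases before to 50 after an annotated start, on the strand of the gene. Capitals mark every match, on either strand, to any of 20 motifs searched: the octamer (ATTTGCAT), the letters of SOX factors (ACAAAG), the joint OCT-SOX letters (CATAACAA), those of OTX factors (TAATCC), of AP-1 (TGANTCA), of TEAD factors (GGAATG) and of KLF factors (GGGTGTGG), the GC box (GGGCGG), the CCAAT box (spelled as its name), the letters of ETS factors (CCGGAAG), of NRF1 (GCGCATGC) and of YY1 (AAGATGGCG), the CRE (TGACGTCA), the E-box (CACGTG), and the letters of GRHL factors (AACCGGTT), of CTCF (CAGGGGGC), of ZIC factors (CAGCAGG), of GATA factors (AGATAA), of TCF/LEF factors (CTTTGAT) and of ESRRB (TCAAGGTCA). Matches may overlap, as the GC box and the CTCF letters do in Eda. Held by FS1 only were
Ypel5, chr17:72836378-72836677, plus strand: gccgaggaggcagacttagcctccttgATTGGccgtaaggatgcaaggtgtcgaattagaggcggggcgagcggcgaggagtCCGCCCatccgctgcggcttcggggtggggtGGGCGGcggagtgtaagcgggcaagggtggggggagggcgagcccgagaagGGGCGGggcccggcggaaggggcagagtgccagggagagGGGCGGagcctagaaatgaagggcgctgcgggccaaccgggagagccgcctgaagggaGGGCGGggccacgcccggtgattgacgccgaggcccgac
Nr1h2, chr7:44553916-44554215, minus strand: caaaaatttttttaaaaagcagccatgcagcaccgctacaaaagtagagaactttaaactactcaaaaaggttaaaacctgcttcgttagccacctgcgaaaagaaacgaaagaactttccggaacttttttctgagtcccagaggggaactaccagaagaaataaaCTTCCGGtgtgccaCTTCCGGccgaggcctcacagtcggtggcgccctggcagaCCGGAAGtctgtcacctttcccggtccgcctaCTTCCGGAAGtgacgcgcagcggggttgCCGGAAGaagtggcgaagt
Cln6, chr9:62838535-62838834, plus strand: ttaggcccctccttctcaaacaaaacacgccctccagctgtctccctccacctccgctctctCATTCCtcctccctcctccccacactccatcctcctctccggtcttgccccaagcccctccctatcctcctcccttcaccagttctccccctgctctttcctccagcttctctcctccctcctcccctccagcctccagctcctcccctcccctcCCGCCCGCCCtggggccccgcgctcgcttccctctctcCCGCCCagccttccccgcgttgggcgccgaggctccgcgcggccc
Usp28, chr9:48985135-48985434, plus strand: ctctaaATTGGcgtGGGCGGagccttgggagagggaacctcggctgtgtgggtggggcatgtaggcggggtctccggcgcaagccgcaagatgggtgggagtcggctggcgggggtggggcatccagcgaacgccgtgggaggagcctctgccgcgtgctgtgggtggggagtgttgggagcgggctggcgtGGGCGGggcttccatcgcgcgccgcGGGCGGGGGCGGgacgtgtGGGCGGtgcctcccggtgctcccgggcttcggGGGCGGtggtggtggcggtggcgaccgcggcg
Eda, chrX:99975356-99975655, plus strand: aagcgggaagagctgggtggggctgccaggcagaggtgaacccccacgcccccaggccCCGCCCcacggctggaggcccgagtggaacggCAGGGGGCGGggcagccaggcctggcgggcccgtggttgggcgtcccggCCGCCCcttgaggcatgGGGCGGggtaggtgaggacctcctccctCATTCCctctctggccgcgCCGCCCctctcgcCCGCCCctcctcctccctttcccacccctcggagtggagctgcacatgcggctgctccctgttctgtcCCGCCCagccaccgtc
Dnmt3b, chr2:153649199-153649498, plus strand: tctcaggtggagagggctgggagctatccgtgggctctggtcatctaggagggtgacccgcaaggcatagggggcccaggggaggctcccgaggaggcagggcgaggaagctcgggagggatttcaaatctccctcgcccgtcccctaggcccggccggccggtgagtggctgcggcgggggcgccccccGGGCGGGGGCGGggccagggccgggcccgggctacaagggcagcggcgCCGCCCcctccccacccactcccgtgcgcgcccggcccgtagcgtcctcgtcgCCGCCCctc
and held by FS2 only were
Coq7, chr7:118533307-118533606, minus strand: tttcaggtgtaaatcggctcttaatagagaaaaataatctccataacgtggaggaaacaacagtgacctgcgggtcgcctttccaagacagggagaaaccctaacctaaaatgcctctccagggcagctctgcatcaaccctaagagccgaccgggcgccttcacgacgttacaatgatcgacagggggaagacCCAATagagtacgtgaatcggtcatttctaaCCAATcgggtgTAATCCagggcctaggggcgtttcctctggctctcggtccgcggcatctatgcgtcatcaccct
Alox5, chr6:116461129-116461428, minus strand: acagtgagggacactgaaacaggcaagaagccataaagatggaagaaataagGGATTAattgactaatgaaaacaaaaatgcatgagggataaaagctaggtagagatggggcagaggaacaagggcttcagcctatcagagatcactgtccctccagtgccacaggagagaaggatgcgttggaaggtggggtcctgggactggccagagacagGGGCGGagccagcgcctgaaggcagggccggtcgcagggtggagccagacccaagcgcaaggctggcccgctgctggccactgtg
Slc38a4, chr15:97055907-97056206, minus strand: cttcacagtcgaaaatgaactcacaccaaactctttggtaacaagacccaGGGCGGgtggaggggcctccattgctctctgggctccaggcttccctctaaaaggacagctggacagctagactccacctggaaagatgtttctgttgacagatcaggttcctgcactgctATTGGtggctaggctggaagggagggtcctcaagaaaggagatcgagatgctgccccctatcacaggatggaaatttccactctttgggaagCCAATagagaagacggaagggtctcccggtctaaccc

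The FS1-only windows shown were mostly GC-rich with repeated GC boxes. Usp28 had 6 GC box matches and 74.7% G or C, Eda had 7 and 74.3%, and Dnmt3b had 4 and 76%. Nr1h2 differed from these, with no GC box, 50.7% G or C and 6 ETS matches. Its window ran past the edge of its region, and 138 of the 300 bases lay inside. The FS2-only windows shown held 52% G or C in Coq7, 55.7% in Alox5 and 53% in Slc38a4, and Coq7 and Slc38a4 had 2 CCAAT boxes each. These shares were below the mean of their set, given next. Between 200 and 209 of their 300 bases lay inside the regions.

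Over all such windows, 205 overlapped FS1-only regions and 69 overlapped FS2-only regions. Mean G or C content was 65.7 ± 8.30% (SD over windows) for FS1-only and 62.1 ± 7.90% for FS2-only, against 63.7 ± 6.94% in the 1748 windows under regions held by all 6 lists and 56.2 ± 11.6% in all 21263 windows of the table. The CCAAT box, a promoter element bound by the NF-Y complex, was in 36.6% of FS1-only and 37.7% of FS2-only windows. It was in 70.3% of the windows held by all 6 lists, in 45.9% of all union windows and in 38.2% of the table. Both line-only sets thus lay near the share of the whole table and below that of the shared regions. The GC box was in 84.4% of FS1-only, 71.0% of FS2-only, 79.6% of all-6 and 46.2% of all windows. The ETS letters were in 14.1%, 17.4%, 17.7% and 11.6% in the same order, and the octamer letters in 2.44%, 5.80%, 1.95% and 1.66%, which is 5 windows of FS1-only and 4 of FS2-only. The ESRRB and GRHL letters were in no window of either line alone, and in only 0.334% and 0.179% of all windows. A match describes the letters and does not show that a factor was bound.

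The lists of the 2 lines differed in length and strength before any selection. FS1 lists held 26448, 23883 and 31263 peaks as deposited, and FS2 lists 14147, 11796 and 12960. The last of the 8044 peaks had a −log10 q of 4.71, 4.92 and 5.997 in the FS1 lists and of 2.48, 2.00 and 2.15 in the FS2 lists, and a median width of 358, 359 and 376 bp against 265, 242 and 266 bp. At that threshold the last peak kept and the first left out had the same −log10 p to 2 decimals, at 7.72, 7.91 and 8.98 in FS1 and 5.64, 5.18 and 5.30 in FS2. Equal length therefore took the top 25.7 to 33.7% of the FS1 lists and 56.9 to 68.2% of the FS2 lists, and reached weaker peaks in FS2. What part these differences had in the regions described was not tested. A site open in fewer cells and a site less open in each cell cannot be told apart in these bulk libraries.

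**Figure D1:**
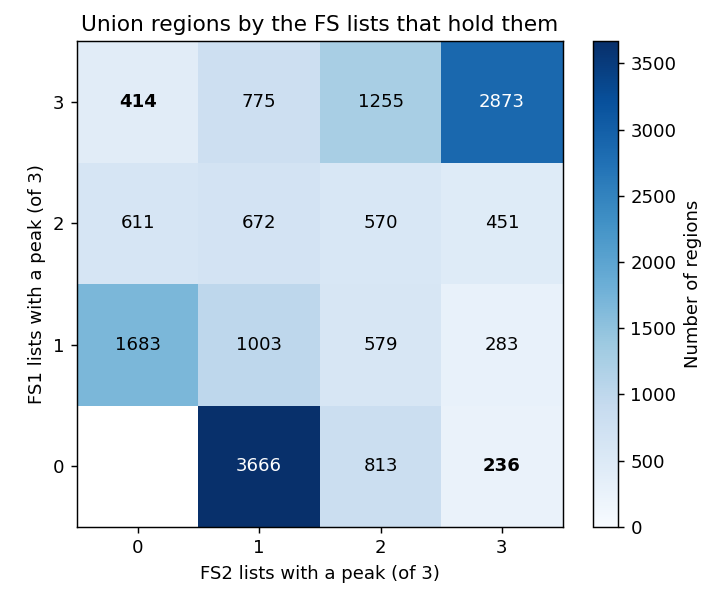
Number of union regions by how many of the 3 FS1 lists (vertical axis) and of the 3 FS2 lists (horizontal axis) held them, with colour and label both giving the count. The corners in bold are the 414 FS1-only and 236 FS2-only regions, beside 2873 held by all 6 lists and 3666 held by a single FS2 list.

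The grid of list counts shows what lay next to the 2 sets. A further 775 regions were in 3 FS1 lists and 1 FS2 list, and 283 were in 1 FS1 list and 3 FS2 lists. Regions in 2 lists of a line and none of the other numbered 611 for FS1 and 813 for FS2. Single-list regions were more numerous in FS2, at 3666, than in FS1, at 1683, so more regions rested on a single FS2 list. Membership depended on the setting more than the counts did: 111 of the 414 FS1-only and 80 of the 236 FS2-only regions were still held by that line only in the top 5000 peaks, and 234 and 146 when ranked by fold. Leaving out a library loosens the rule: FS1-only regions numbered 631 and 652 without FS1 replicates 1 and 2 and 679 and 717 without FS2 replicates 1 and 3. FS2-only regions numbered 498, 494 and 529 without FS2 replicates 1, 2 and 3.

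The labels were checked against markers at gene starts at equal list length. Of 15 formative markers, the FS1 lists had 6, 6 and 6 with a peak within 1 kb of the start, the FS2 lists 5, 2 and 6, and the ES lists 4, 1 and 1. The EpiSC lists had 6 to 10, so these starts did not set FS apart from EpiSCs. Of 14 naive markers, the FS lists had 3 to 5, the EpiSC lists 3 to 6 and the ES lists 5 to 7. Single naive markers differed: the start of Zfp42 was in 3 of 3 ES lists and none of the 6 FS lists, while that of Klf5 was in all 3 lists of FS1, FS2 and ES. Pou3f1 and Dnmt3a, both formative markers, were in 3 of 3 FS1 and 2 of 3 FS2 lists. Dnmt3b and Tcf15 were in 3 FS1 lists and 0 FS2 lists, and Etv4 and Etv5 in all 3 of both lines. Fgf5, Zic5 and Grhl2 were in 1 FS2 list and no FS1 list. Otx2, Lef1, Sox3, Zic2, Foxd3 and Sall2 were in no FS list. Of 10 core pluripotency genes, the FS1 lists had 4, 1 and 4, the FS2 lists 0, 1 and 2 and the ES lists 1, 1 and 0. Of 15 markers of trophoblast and fibroblast feeder cells, 1, 1 and 0 had a peak in the FS1 lists and 2, 1 and 3 in the FS2 lists, and their part in the difference was not tested. No region of either line alone lay within 20 kb of these 15 genes.

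Gene starts were the largest class in both sets and took a larger share of FS1-only than of FS2-only regions. Of the 414 FS1-only regions, 255 (61.6%) lay within 1 kb of the start of a protein-coding gene, 77 (18.6%) elsewhere in a gene, 36 (8.70%) outside but within 20 kb and 46 (11.1%) farther away. Of the 236 FS2-only regions, 90 (38.1%) lay near a start, 58 (24.6%) in a gene body, 41 (17.4%) within 20 kb and 47 (19.9%) farther away. Among all union regions 53.8% lay near a start, and among those held by all 6 lists 72.6%. The FS1-only share thus lay between the union and the shared regions, and the FS2-only share below the union. With the lists as deposited the shares were 33.06% and 20%, the FS1-only share falling by over 1.5 times. FS1-only regions had a median width of 480 bp and FS2-only regions of 323 bp, against 350 bp in the union.

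**Figure D2:**
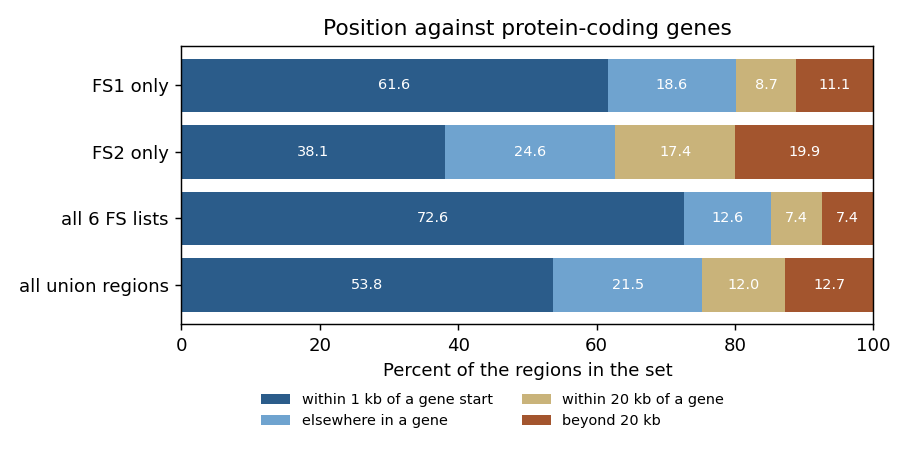
Percent of regions in each position class against protein-coding genes, for FS1-only (414), FS2-only (236), all-6 (2873) and all union regions (15884). Regions within 1 kb of a gene start make up 61.6% of FS1-only and 38.1% of FS2-only regions.

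Few of these peaks were among the strongest of their lists. A percentile rank of 100 is the top of a deposited list, and each region was given the mean over its 3 holding lists. FS1-only regions had a median percentile of 81.6, from 72.3 to 99.0, and a median mean rank of 4927. FS2-only regions had a median percentile of 66.7, from 43.9 to 98.8, and a median mean rank of 4273. Within FS2-only, regions beyond 20 kb of a gene ranked higher, with a median percentile of 75.7, than those at gene starts, with 61.0. In FS1-only the same medians were 81.1 and 81.9. Percentiles refer to deposited lists of unequal length, and the median ranks order the 2 sets the other way.

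Many regions had a weaker peak in the other line below rank 8044. Of the FS1-only regions, 111 (26.8%) had no peak in any FS2 list as deposited, 139 had one in 1 list, 108 in 2 and 56 (13.5%) in all 3. Of the FS2-only regions, 10 (4.24%) had no peak in any FS1 list as deposited and 171 (72.5%) had one in all 3. FS2-only regions were thus mostly places where FS1 had a peak of lower rank, with median ranks of 12162.5, 12753 and 14028 in the 3 FS1 lists. The weaker FS2 peaks at FS1-only regions had median ranks of 10187, 9694 and 9823. As deposited, FS1 lists are longer, so a weak peak is more readily listed there. With the lists as deposited, the same rule gave 3194 regions for FS1 and 30 for FS2, and restricted to a −log10 q of 5 or more it gave 3063 and 8. In both settings the FS1 lists were longer than the FS2 lists.

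At the regions of FS1 alone, the highest peak lay far from any gene. It was at chr7:64036228-64036538, 94.3 kb from Gm45988, with ranks 316, 342 and 135 in the FS1 lists and no peak in any FS2 list as deposited. The authors' fold enrichment there was 9.27, 9.21 and 12.1. It was held by 3 of the 9 EpiSC lists, by 0 of 3 ES lists and by 3 of the 4 EpiLC lists, and another 2 FS1-only regions near Klf13, a Krüppel-like zinc finger gene, lay within the same 159 kb. Of the 5 union regions in that stretch 3 were FS1-only. Runs of at least 3 regions of a line with gaps of at most 500 kb were looked for after the values were seen.

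Other regions of FS1 away from gene starts followed. At chr4:153666746-153667096, 183 kb from Ajap1, which encodes a protein of adherens junctions, the FS1 ranks were 370, 1449 and 408. That region was in no FS2, EpiSC or ES list, even as deposited, but in 3 of 4 EpiLC lists. At chr15:36929257-36930073, 67.0 kb from the zinc finger gene Zfp706 and overlapping the noncoding gene Gm41300, the ranks were 869, 323 and 396, and the region was in all 9 EpiSC lists and no ES list. A region in Kcnk2, which encodes a potassium channel, at chr1:189370521-189370861, had ranks 937, 382 and 519. It was in 5 EpiSC lists and no ES list. A region in Agbl1, of the cytosolic carboxypeptidase family, at chr7:76318393-76318674, had ranks 922, 648 and 452, no FS2 peak as deposited, 1 ES list and no EpiSC list at equal length. These 4 regions thus ranged from shared with every EpiSC list to shared with none.

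The region nearest to Gm14296, 105 kb away at chr2:177032315-177032723, had FS1 ranks 496, 836 and 1812. It lay in a cluster of zinc finger genes, where 3 of 8 union regions were FS1-only. No FS2 list as deposited had a peak there, while all 3 ES lists held it. Genes with a name in Zfp, Zscan or Zkscan were nearest to 2.66% of FS1-only regions, 1.69% of FS2-only regions and 2.42% of the union, which are similar shares. Near Ogdhl, an oxoglutarate dehydrogenase-like gene, the region at chr14:32351243-32351780 was in all 9 EpiSC lists and had ranks 1095, 1144 and 635. The region 38.5 kb from Slc38a10, a gene of the amino acid transporter family, had ranks 2173, 683 and 921 and was in all 9 EpiSC lists too.

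The FS1-only promoters with the highest ranks were open in other pluripotent lines as well. The Ypel5 region, chr17:72836174-72836790, had FS1 ranks 251, 639 and 353, and its FS2 peaks came at 9510, 11490 and 11751. Ypel5 encodes a small zinc-binding protein of the yippee family. The region was in all 9 EpiSC, 3 ES and 4 EpiLC lists, so FS2 stood apart from every other first-set line there. The Usp28 start, chr9:48984921-48985560, had ranks 735, 1386 and 1161, and no FS2 list had a peak even as deposited, although all 9 EpiSC, 3 ES and 4 EpiLC lists did. Usp28 encodes a deubiquitinase linked to Myc and p53. The Cln6 start, named for a membrane protein of the endoplasmic reticulum, was also in all 9 EpiSC and 3 ES lists, with FS1 ranks 1105, 996 and 826.

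Nr1h2, which encodes an oxysterol receptor, and Eda, which encodes a ligand of the tumour necrosis factor family needed for hair and teeth, made up the rest of this group. The Nr1h2 region, chr7:44553193-44554053, had ranks 699, 380 and 2017 and was in all 9 EpiSC and 4 EpiLC lists but no ES list. The Eda region, chrX:99975237-99976222, had ranks 2629, 454 and 243 and was in all 9 EpiSC and 3 ES lists. It was the highest of the FS1-only regions on the X chromosome.

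At the regions of FS2 alone, the top of the ranking was distal and shared with ES cells. At chr15:60141716-60142060, 125 kb from 4933412E24Rik and overlapping Gm41331, the FS2 ranks were 129, 134 and 218, and the FS1 peaks came at 10364, 19759 and 12769. The region was in 8 of 9 EpiSC and 3 of 3 ES lists and in none of the 4 EpiLC lists. At chr17:93645641-93645835, 439 kb from Adcyap1, the gene of the neuropeptide PACAP, ranks were 432, 203 and 268. At chr14:109676163-109676351, 762 kb from Slitrk1, a neuronal membrane protein gene, they were 383, 282 and 642. These 2 regions were in 8 and 6 EpiSC lists, in all 3 ES lists and in no EpiLC list.

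Within genes, FS2 alone held chr10:4614343-4614538 in Esr1, the estrogen receptor gene, with ranks 848, 543 and 693. It held chr7:82771060-82771500 in Efl1, a GTPase gene of ribosome assembly, with ranks 411, 1335 and 451, and chr14:6637115-6637723 in Gm3629, with ranks 639, 264 and 798. All 3 regions were in 3 of 3 ES lists and none was in an EpiLC list. The region nearest to 1700129C05Rik, 474 kb away, had ranks 589, 551 and 330 and was in 2 ES lists. When peaks were ranked by fold, the regions named by Slitrk1, Esr1 and Efl1 were no longer FS2-only. FS2 lists then outnumbered FS1 lists by 1 at Slitrk1 and by 2 at Esr1 and Efl1. Those named by 4933412E24Rik, Adcyap1, 1700129C05Rik and Gm3629 stayed FS2-only. Over all FS2-only regions beyond 20 kb of a gene, 74.5% were in an ES list, against 50% of those at gene starts. In FS1-only the order was the opposite, with 32.6% and 69.8%. The distal classes held 47 FS2-only and 46 FS1-only regions. Over the union, 48.3% of regions of any position were in an ES list. That share was not split by position, so the contrast has no such background. The EpiLC lists belong to another set of libraries and were read as deposited.

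Promoters of FS2 alone ranked lower. The 5 highest were at Cabyr, a calcium-binding sperm protein gene, Coq7, Alox5, Pigz and Slc38a4, with mean percentiles of 86.3, 82.5, 76.1, 76.0 and 75.4. At Coq7, which encodes a hydroxylase of ubiquinone synthesis, the FS2 ranks were 1389, 4521 and 574 and the FS1 ranks 16076, 15181 and 9787. At Alox5, the lipoxygenase gene of leukotriene synthesis, they were 2173, 3761 and 3171 in FS2 and 12979, 10162 and 19090 in FS1. The start of Pigz, a gene of glycolipid anchor synthesis, had FS2 ranks 3437, 1064 and 5032. In these 3 promoters every FS1 list had a peak of lower rank. Slc38a4, an amino acid transporter gene that is imprinted in mouse, was the only promoter of FS2 alone without a peak in any FS1 list as deposited. Its region, chr15:97055895-97056111, had FS2 ranks 3744, 2313 and 3588 and was in 6 EpiSC lists and no ES list.

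The genes of pluripotency and its signals were mostly not near these regions. No region of either line alone was within 20 kb of any of 14 naive, 16 primed and mesendoderm, 10 germ cell or 10 core pluripotency genes, nor of 15 genes of the Nodal and Activin pathway or 16 of the FGF and ERK pathway. Over all 21887 protein-coding genes, 700 (3.20%) had an FS1-only and 332 (1.52%) an FS2-only region within 20 kb, so few were due in lists of this size. Of 15 formative markers, 2 (Dnmt3b and Tcf15) had an FS1-only region and 1 (Otx2) an FS2-only region. Of 16 Wnt pathway genes, Rnf43 had an FS1-only and Tcf7 an FS2-only region, and of 16 retinoic acid pathway genes Rarg had an FS2-only region. Of 10 neural markers, Sox1 had an FS2-only region. The lists were chosen with earlier results known and are described by their counts.

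Dnmt3b encodes a DNA methyltransferase that sets new methylation as the epiblast forms. Its start region, chr2:153648873-153649590, had FS1 ranks 4573, 5780 and 4364 and FS2 peaks at 8146 and 10565 in 2 lists. It was in all 9 EpiSC lists, in 3 of 4 EpiLC lists and in no ES list. Tcf15, a helix-loop-helix factor gene, had its region at chr2:152143335-152143629, with FS1 ranks 5264, 4413 and 3418 and FS2 peaks at 8482 and 8927 in 2 lists. It too was in all 9 EpiSC lists and no ES list. At both genes an FS2 peak lay just below rank 8044 (8146 and 8482), so the threshold decided the call.

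Otx2 encodes the homeodomain factor that works with Pou5f1 at enhancers of the formative state. The FS2-only region at chr14:48658767-48659298 lay within the gene, 3.44 kb from its start, with FS2 ranks 2883, 690 and 2573. The authors' fold enrichment there was 4.49, 4.81 and 4.20, against 4.19, 3.97 and 3.86 at the last of the 8044 peaks of those lists. Among peaks with −log10 q of at least 5, only 1 FS2 list held the region. It was in no FS1, EpiSC, ES or EpiLC list, even as deposited. It was the only FS2-only region of which this was true, whereas 2 FS1-only regions, near Ankrd44 and Atxn1l, were in no FS2, EpiSC, ES or EpiLC list. Without the EpiLC lists and the other FS line, 4 FS1-only and 2 FS2-only regions were in no ES or EpiSC list as deposited.

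Rnf43 and Tcf7 sit on opposite sides of Wnt signalling, as a ubiquitin ligase that removes Wnt receptors and a transcription factor at the end of the pathway. The FS1-only region near Rnf43 was at the start of Supt4a, a transcription elongation gene, with ranks 4054, 5998 and 7644, and was in 7 EpiSC lists. The FS2-only region near Tcf7 was at the start of Skp1, a subunit gene of a ubiquitin ligase, with ranks 7415, 4334 and 1891, and was in 1 EpiSC list. Among peaks with −log10 q of at least 5, the Skp1 region was held by 1 more FS1 list than FS2 lists, so it no longer leaned towards FS2. The region near Rarg, a retinoic acid receptor gene, was in Itgb7 at chr15:102224344-102224782, with FS2 ranks 1612, 2317 and 3611 and FS1 ranks 10191, 8135 and 10580. The region 3.599 kb from Sox1, a neural transcription factor gene, had ranks 7537, 5203 and 5684. It was in 2 EpiSC lists and no ES list.

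Of 12 imprinted genes in the gene table, 2 had an FS1-only and 1 an FS2-only region. The body of Peg10, a paternally expressed gene derived from a retrotransposon, held one with FS1 ranks 7690, 7360 and 5412, in 8 EpiSC and 3 ES lists. Near Zrsr1, the region was at the start of Cct4, a chaperonin subunit gene, with ranks 5621, 7604 and 7055. Near Impact, a gene of translation control, the FS2 ranks were 4080, 2118 and 1138, and the region was in 8 EpiSC lists. The Peg10 and Cct4 regions thus ranked below the Impact region in their own lists.

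At equal list length the EpiSC lists held more of the FS1-only set, and the share in any ES list was similar for both sets. Of the FS1-only regions, 384 (92.8%) were in at least 1 of the 9 EpiSC lists at equal length, 107 (25.8%) in all 9, and 228 (55.1%) in at least 1 of the 3 ES lists. Of the FS2-only regions, 184 (78.0%) were in an EpiSC list, 0 in all 9, and 128 (54.2%) in an ES list. Over the union the shares were 74.2%, 22.7% and 48.3%. Looked up in the EpiSC lists as deposited, the shares in any list were 99.0% and 99.2%, so that difference was not seen there. At equal length the FS1-only shares were above the union for any EpiSC list, and the FS2-only shares were near it for any EpiSC list and below it for all 9. All 3 ES lists held 71 (17.1%) of FS1-only and 62 (26.3%) of FS2-only regions, against 19.6% of the union. In neither kind of list were 26 (6.28%) and 31 (13.1%), against 21.03%.

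Among the EpiSC lines, EpiSC_AFX2 divided the 2 sets the most. It held 74.6%, 73.4% and 73.2% of the FS1-only regions in its 3 lists and 17.4%, 11.9% and 18.2% of the FS2-only regions. EpiSC_AFX1 held 53.6%, 54.3% and 59.4% against 44.9%, 43.2% and 39.8%, and EpiSC_AF held 71.3%, 68.6% and 72.5% against 36.0%, 32.6% and 30.9%. At equal length the FS1-only share was therefore the higher in each of the 9 EpiSC lists. Looked up in the lists as deposited, the direction turned in 2 of them, with 87.2% against 90.7% in EpiSC_AFX1 replicate 2 and 88.6% against 94.9% in replicate 3. The ES lists gave 35.0%, 34.5% and 35.0% against 38.1%, 40.7% and 39.0%, with FS2-only higher in each. No list of EpiSC_AFX2 held 163 (69.1%) of the FS2-only regions, and none held 52 (12.6%) of the FS1-only regions. These reference lists also differed in length. EpiSC_AFX2 had 25641, 29575 and 25979 peaks as deposited, and EpiSC_AFX1 17701, 21394 and 27485. EpiSC_AF had 15505, 21549 and 24824, and ES 10961, 8044 and 9705. Their last peak kept had a −log10 q of 5.73, 6.67 and 5.08 in EpiSC_AFX2 and of 1.55, 1.01 and 1.49 in ES. What part list strength had in these shares was not tested. The same rule between EpiSC_AFX1 and EpiSC_AFX2, which share a medium, gave 259 (1.85%) and 337 (2.40%) of 14030 union regions.

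**Figure D3:**
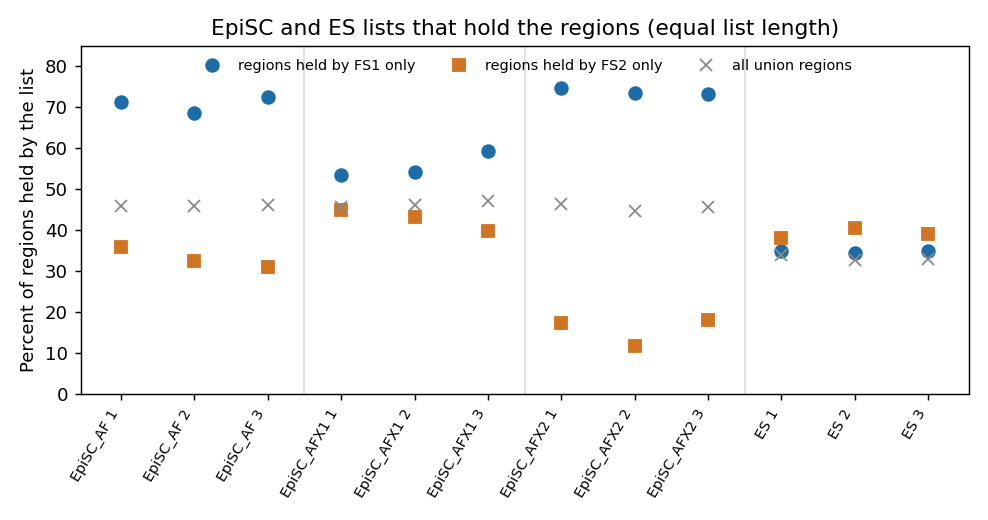
Percent of FS1-only (circles), FS2-only (squares) and all union regions (crosses) that each EpiSC and ES list held at equal list length. The EpiSC_AFX2 lists hold 73.2 to 74.6% of FS1-only and 11.9 to 18.2% of FS2-only regions, and the ES lists hold 34.5 to 40.7% of either.

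The X chromosome carried 27 FS1-only regions and 1 FS2-only region, the largest imbalance among the chromosomes apart from Y. The 27 were 9.2% of the union regions on X, against 2.61% over the genome. Of these, 23 lay at gene starts, all 27 were in an EpiSC list and 20 in an ES list, and 11 had no peak in any FS2 list as deposited. None had a peak in all 3 FS2 lists. They included the starts of Eif1ax, a translation initiation factor gene, with ranks 1273, 2140 and 2690, and of Mtm1, a lipid phosphatase gene, with ranks 1504, 2346 and 2432. The starts of Rbbp7, Hdac6 and Maoa, which encode a histone-binding protein, a tubulin deacetylase and a monoamine oxidase, were also among them. At Rps6ka3, Eif1ax and Bclaf3, which are neighbours, all 3 union regions were FS1-only. The single FS2-only region on X was in Magix, with ranks 5513, 3418 and 7005. Between EpiSC_AFX1 and EpiSC_AFX2 the same rule gave 4 and 12 of 335 union regions on X. On Y it gave 11 and 0 of 26, so X and Y regions also divided unevenly between those lines.

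FS2 had fewer X peaks in all. Among the 8044 peaks, X held 159, 167 and 173 in the FS1 lists and 95, 83 and 83 in the FS2 lists, so the FS1 mean was 1.91 times the FS2 mean and the lists did not overlap. The other lines had 150 to 209, above every FS2 list. Of the 59 X regions held by all 9 EpiSC lists, FS1 lists held 94.9 ± 3.39% and FS2 lists 57.6 ± 3.39% (SD, n = 3 each). On the autosomes other than 14 and 15 the same shares were 97.0 ± 0.533% and 81.4 ± 2.85% over 3281 regions, so FS2 held less of the common set there and still less on X. On Y, with 5 such regions, FS2 held 100 ± 0% and FS1 86.7 ± 11.5%. Of 311 X regions in 1 to 8 EpiSC lists, FS1 held 31.8 ± 0.851% and FS2 13.2 ± 1.67%, while on those other autosomes they held 33.04 ± 0.399% and 31.1 ± 0.616% of 10678. The 22 X regions held by all 6 lists ranked higher in FS2, with median ranks of 570, 1232 and 648 against 1991.5, 1997 and 2084.5 in FS1. Over all 2873 such regions the medians were 2075, 2280 and 2108 in FS2 and 1951, 1863 and 1981 in FS1. Only 22 of the 293 union regions on X passed the rule, against 18.1% of all union regions. The rule asks for a peak in every FS2 list, where X peaks were few. It can therefore favour high FS2 ranks by itself, and its part in the rank difference was not tested. The sex of the lines is not given in the sources used here.

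**Figure D4:**
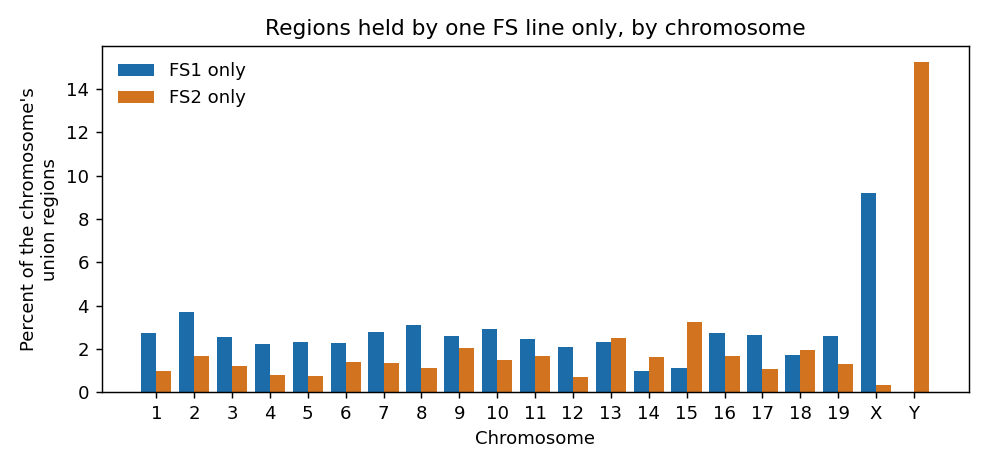
Percent of the union regions of each chromosome that were held by FS1 only (left bars) and by FS2 only (right bars), with no error bars since each bar is a single count. X has 9.2% FS1-only regions, and chromosome 15 and Y lean towards FS2, but the regions on Y do not when peaks are ranked by fold.

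Chromosome 15 leaned the other way. It held 26 FS2-only regions (3.2% of its union regions) and 9 FS1-only regions (1.1%). Its peaks at equal length numbered 349, 365 and 357 in FS1 and 493, 471 and 478 in FS2, with an FS1 to FS2 ratio of 0.743, and the other lines had 267 to 347. Every FS2 list was thus above each of the other 15 lists. Of 463 regions in 1 to 8 EpiSC lists, FS1 held 36.9 ± 2.27% and FS2 47.7 ± 2.48% (SD, n = 3 each). Of 154 in all 9, FS1 held 98.1 ± 0% and FS2 91.8 ± 2.70%. On the autosomes other than 14 and 15, FS1 held 33.04% and 97.0% of these 2 kinds of region and FS2 31.1% and 81.4%. Chromosome 14 had a lesser tilt, with 281, 280 and 277 peaks in FS1 and 337, 320 and 316 in FS2 and with 6 FS1-only and 10 FS2-only regions. The chromosome numbers of the lines are not given in the sources used here.

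**Figure D5:**
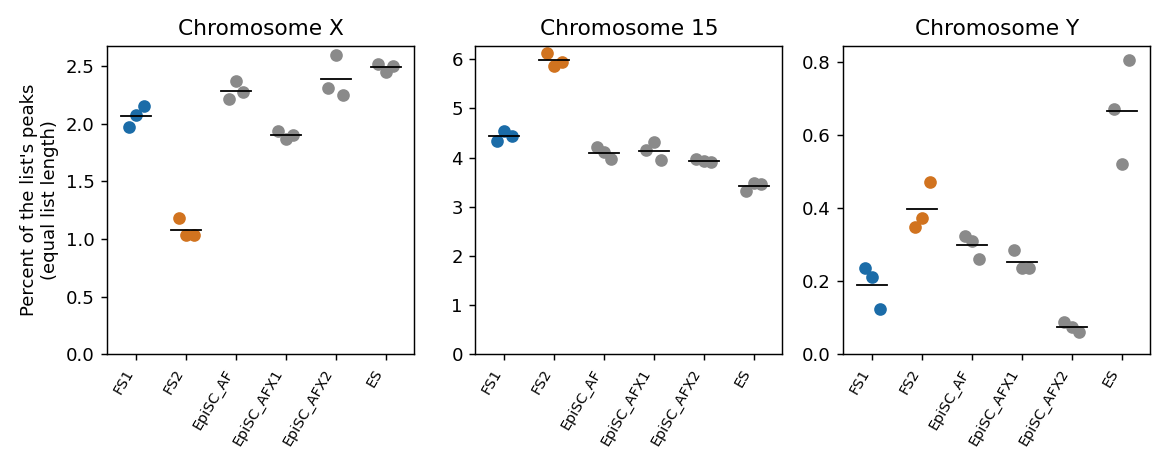
Percent of the 8044 peaks of each list that lay on chromosomes X, 15 and Y, with points for the 3 libraries of each line and a bar at their mean. FS2 is below every other line on X and above every other line on 15.

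The 26 FS2-only regions of chromosome 15 mostly had a peak of lower rank in FS1. Of these, 10 were at gene starts, 19 in an EpiSC list and 9 in an ES list, and 21 had a peak in all 3 FS1 lists as deposited. In Pick1, the gene of a scaffold protein of synapses, the FS2 ranks were 2815, 597 and 1693 and the FS1 ranks 8764, 12310 and 14940. Near Rrm2b, a ribonucleotide reductase subunit gene, they were 2454, 2685 and 2070 and 11515, 11016 and 22622. A region beyond 20 kb of Grhl2, the gene of a grainyhead epithelial factor, had FS2 ranks 2831, 4518 and 1379 and FS1 ranks 19061, 12744 and 10629. Near the keratin gene Krt78, 4 of 12 union regions over 251 kb were FS2-only, those named by Krt78, Eif4b, Tns2 and Itgb7.

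The 7 FS2-only regions on Y, 15.2% of its union regions, all lay at the far end of the chromosome nearest to Gm52481, between 90718532 and 90813214. That end of the assembly also carries sequence shared with X, and how reads that map to several places were treated is not given in the sources used here. The highest, chrY:90807293-90807637, had ranks 845, 371 and 701. All 7 were in an EpiSC list and in an ES list. When peaks were ranked by fold, each of the 7 was in as many FS1 as FS2 lists, so none leaned towards FS2. In the first 4 Mb of Y, a boundary chosen after seeing the values, the lists as deposited had 25, 18 and 23 peaks in FS1 and 6, 6 and 9 in FS2. The FS1 lists are the longer ones, so these counts are not comparable with the equal-length result. EpiSC_AFX2 had 1, 1 and 1.

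Other tight groups of FS2-only regions lay on chromosomes 9, 8 and 13. Within 10.9 kb at the start of chromosome 9, 302 to 313 kb from Alkbh8, 3 regions had fold enrichments of 1.49 to 1.58, the lowest of the regions chosen by the naming rule. They were in 3 of 3 ES lists and in every FS1 list as deposited. Near Gm15319 on chromosome 8, 3 regions were part of a run of 5 among 18 union regions that reached the defensin gene Defb33. When peaks were ranked by fold, the 3 regions near Alkbh8 and the 3 near Gm15319 no longer leaned towards FS2. On chromosome 13, 5 of 12 union regions over 463 kb were FS2-only, near Tmem267, B020031M17Rik, Gm36079 and Gm21188. Of these, the regions at B020031M17Rik, Gm36079 and Gm21188 had no peak in any FS1 list as deposited and stayed FS2-only when ranked by fold. Gm21188 had FS2 ranks 877, 532 and 733. At Smim10l1, on chromosome 6, ranks were 322, 1518 and 291, also without an FS1 peak.

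Leaving out X, Y and 15 left 378 FS1-only and 202 FS2-only regions, with 60.8% and 39.6% at gene starts. The shares at gene starts thus stayed apart without these chromosomes.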

How the data were processed

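Open chromatin was measured by ATAC-seq, and each library has its own deposited broadPeak list, so peaks were called by the authors without pooling. The submitters' processing notes name Trim Galore, Bowtie, Picard and MACS2 and the build mm10, with no versions. Each deposited peak carries a fold enrichment, which is the authors' ratio for that peak, and the authors' −log10 p and −log10 q. The deposited score was not used. Apart from the values at which the lists were cut, these were used only inside their own list. The files give no read counts, so depth is unknown and no counting interval can be given.

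Libraries were grouped by the source label. Nothing in the labels says that the 3 libraries of a line came from separate cultures, so their spread may be technical. Each first-set list was cut to 8044 peaks by −log10 p, the length of its shortest list. The EpiLC lists were looked up as deposited. Of the 26 lists, the other Rd2 lists were not used here. Genes were 21887 protein-coding genes of RefSeq on GRCm38.p6. For 17492 of them the promoter table gave the start by strand, and for the rest either end of the gene counted. A region was named by its nearest protein-coding gene. Chromosome shares compared across lines used the equal-length lists.

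Regions named in each direction were the 10 of highest mean percentile rank, the 5 highest at gene starts, the 5 highest beyond 20 kb, the 5 highest without a peak in the full lists of the other line, those near a gene of the lists, and genes nearest to at least 3 regions. Regions named on chromosomes X and 15, and runs of neighbours, were chosen after their values were seen. The members and gene lists were chosen with earlier results of these data known. Values were computed with Python 3.11.15 and numpy 2.4.6, and the region rule was tested on simulated data. Alternatives were ranking by fold, the top 5000 peaks, lists as deposited, −log10 q of at least 5, presence over 50% of a region, a start window of 5 kb and leaving out each replicate.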

Additional observations from a re-analysis of the deposited data

How the results depend on the processing

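No paired analysis was possible because the results come from no test. A share is given here where it left the 95% exact binomial interval of its reported value, and a count where it moved by over 1.5 times. The counts by fold rank and in the top 5000 did not move by that much and are given too. Ranges without 1 replicate span every replicate left out, moved or not. The interval treats the regions as independent, so it does not measure the spread between libraries. FS1-only regions numbered 3194 with the lists as deposited, 3063 with −log10 q of at least 5, 797 with presence over 50% of a region and 570 to 717 without 1 replicate. FS2-only regions numbered 30 and 8 with the first 2 settings and 310 to 529 without 1 replicate. Ranking by fold gave 382 and 225 and the top 5000 peaks 378 and 205. Of the reported regions, 56.5% and 61.9% were still held by that line only by fold rank, and 26.8% and 33.9% in the top 5000.

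The FS1-only share at gene starts was 55.8% by fold rank, 72.8% in the top 5000, 33.06% as deposited, 72.5% by q, 68.5% by 50% presence and 70.8% with a 5 kb window. For FS2-only it was 29.8% in the top 5000, 20% as deposited, 0% by q, 31.6% by 50% presence, 46.6% with a 5 kb window and 38.8 to 45.5% without 1 replicate. The FS1-only share without a peak in the full FS2 lists was 38.0% by fold rank, 7.41% in the top 5000, 3.85% by q, 56.6% by 50% presence and 28.2 to 38.7% without 1 replicate. For FS2-only, without a peak in the full FS1 lists, it was 12.5% by q and 8.62% by 50% presence.

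The FS1-only share in an EpiSC list was 96.8% in the top 5000, 97.7% by q, 99.0% when looked up in the lists as deposited and 88.4 to 94.7% without 1 replicate. For FS2-only it was 69.8%, 87.5% and 99.2% with the same settings, 93.3% with all lists as deposited and 63.5 to 83.1% without 1 replicate. The FS1-only share in an ES list was 49.2% by fold rank, 64.8% in the top 5000, 20.7% as deposited, 9.53% by q, 41.8% by 50% presence and 46.3 to 62.2% without 1 replicate, and for FS2-only 64.4% in the top 5000, 75% by q and 41 to 56.9% without 1 replicate. The FS2-only share at gene starts stayed below that of FS1-only in every one of these settings.

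Of the 52 regions named, 29 were still held by their line only when ranked by fold, 38 in the top 5000, 12 as deposited, 23 by q and 42 by 50% presence. The Skp1 region changed sign by q, with 1 more FS1 list than FS2 lists. The causes were not tested, except that unequal list length is part of the settings with lists as deposited and by q.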
